A study of Mus musculus with 7 samples.

Results

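This report describes 53 interferon-stimulated effector genes among 9999 named genes measured in RAW264.7 cells, a mouse macrophage-like line. The members were chosen by symbol: all measured genes of the Ifit, Ifitm, Oas, Gbp, Irgm, Iigp, Isg and numbered Ifi series, with a list of 24 further effectors of which Mx1 and Mx2 were not analysed here. Each gene was read from its brightest probe set over all arrays, and values are log2 signal. There were 3 arrays of wild-type cells and 4 arrays labelled as Gfi1 knockout, and all cells were untreated. Every sample title gives the time as T0. The sample titles call the knockout arrays RAW GfI1-1 and number them as biological replicates 1 to 4, and the wild-type titles also name biological replicates. Whether that name marks 1 clone, and whether replicates came from separate cultures, was left unstated in the labels. The p-values therefore reflect the variation among 7 arrays alone, and what separates the biological replicates is not known.

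Interferons are secreted proteins that warn cells of infection. Type I interferon binds a receptor made of IFNAR1 and IFNAR2, which acts through the kinases JAK1 and TYK2 to form a complex, with STAT2 and IRF9 among its parts, that binds interferon-stimulated response elements in promoters. The genes it switches on block viral entry, detect and degrade foreign RNA, deplete nucleotides, attack pathogen-containing vacuoles and limit the response itself. In macrophages many of them also respond to interferon gamma, or to Toll-like receptor signals through interferon regulatory factors.

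The arrays set limits on every result that follows. The Gfi1 probe set read 2.66, 2.85 and 2.98 in wild-type replicates 1 to 3 and 4.93, 5.02, 3.97 and 3.97 in knockout replicates 1 to 4, so the targeted gene does not check the labels and each direction given rests on them. The wild-type level of Gfi1 was among the lowest 5% of all genes. Over all named genes the SD of the difference between arrays was 0.12 to 0.14 within the pair of knockout replicates 1 and 2 and the pair 3 and 4, and 0.50 to 0.51 between these pairs. Over the 53 members it was 0.11 to 0.15 within the pairs and 1.22 to 1.25 between them. No label separates the pairs. Of 10 macrophage markers, all measured, 7 fell and 0 rose in the arrays labelled knockout, against 21.6% and 21.5% of all genes. The log2 of their summed signal was 14.87 to 14.89 in wild type and 14.30 to 14.39 in knockout. The brightest markers dominate such a sum. Adgre1, Mpeg1 and Fcgr3 fell most, by 1.51, 2.03 and 2.23, and only Cd14 had a positive difference (0.29, not passing). Of 8 plasmacytoid dendritic cell markers 3 were measured, of which Tcf4 rose by 0.77 and Cox6a2 fell by 1.77, while Klk1 differed by 0.19. The conventional dendritic cell marker Itgax differed by -0.30, the erythroid marker Hba-a2 fell by 0.68 and the fibroblast marker Pdgfrb fell by 1.19. None of the neutrophil, T cell, B cell or epithelial markers looked for was among the named genes. Fewer cells of a type and less RNA per cell cannot be told apart in such bulk samples, and the part of these shifts in the interferon-stimulated genes was not tested.

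Interferon-stimulated genes stood mostly higher in the arrays labelled knockout, but by very different amounts in the 4 arrays. With limma and an adjusted p of 0.05 as threshold, 17 of 53 rose, against 21.5% of all named genes, and 4 fell, against 21.6%; in either direction 21 passed, against 43.1%. By at least 2-fold 10 rose, against 3.75% of all genes, and 2 fell, against 3.81%. The median difference over the members was 0.58 and over all genes -0.01. The count of rises was 11 without wild type replicate 1 (17.7% of all genes) and 9 without wild type replicate 2 (13.8%). It was 8 without wild type replicate 3 (14%) and 11 without knockout replicate 1 (18.1%). With the wild-type arrays and each pair of knockout arrays as random blocks, 6 members rose, against 4.48% of all genes, and 3 fell, against 4.56%. That fit had few blocks, with wild type as a single block, and a shared correlation of 0.79 for all genes. The knockout pairs differed more in the members than in all genes, so its p-values may be too small for them. The 9 members that passed both ways were Gbp7, Gbp8, Sp100, Oas3, Xaf1, Eif2ak2, Ifi44l, Ifi30 and Ifi27; the calls of the other 12 (Isg20, Usp18, Ifih1, Rtp4, Bst2, Ifi207, Ifi35, Parp12, Parp9, Oas1c, Ifitm3 and Ifi27l2a) were lost, at adjusted p from 0.0549 to 0.287. The calls of 9 members were lost without some single array: Isg20, Usp18, Ifih1, Rtp4, Bst2, Ifi207, Parp12, Parp9 and Oas1c. All 9 were lost without wild type replicate 3; all of them but Bst2 without wild type replicate 2; Isg20, Usp18, Ifih1, Ifi207, Parp12 and Parp9 without wild type replicate 1; and Usp18, Ifih1, Ifi207, Parp12, Parp9 and Oas1c without knockout replicate 1, of which all but Usp18 were also lost without knockout replicate 2.

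**Figure D1:**
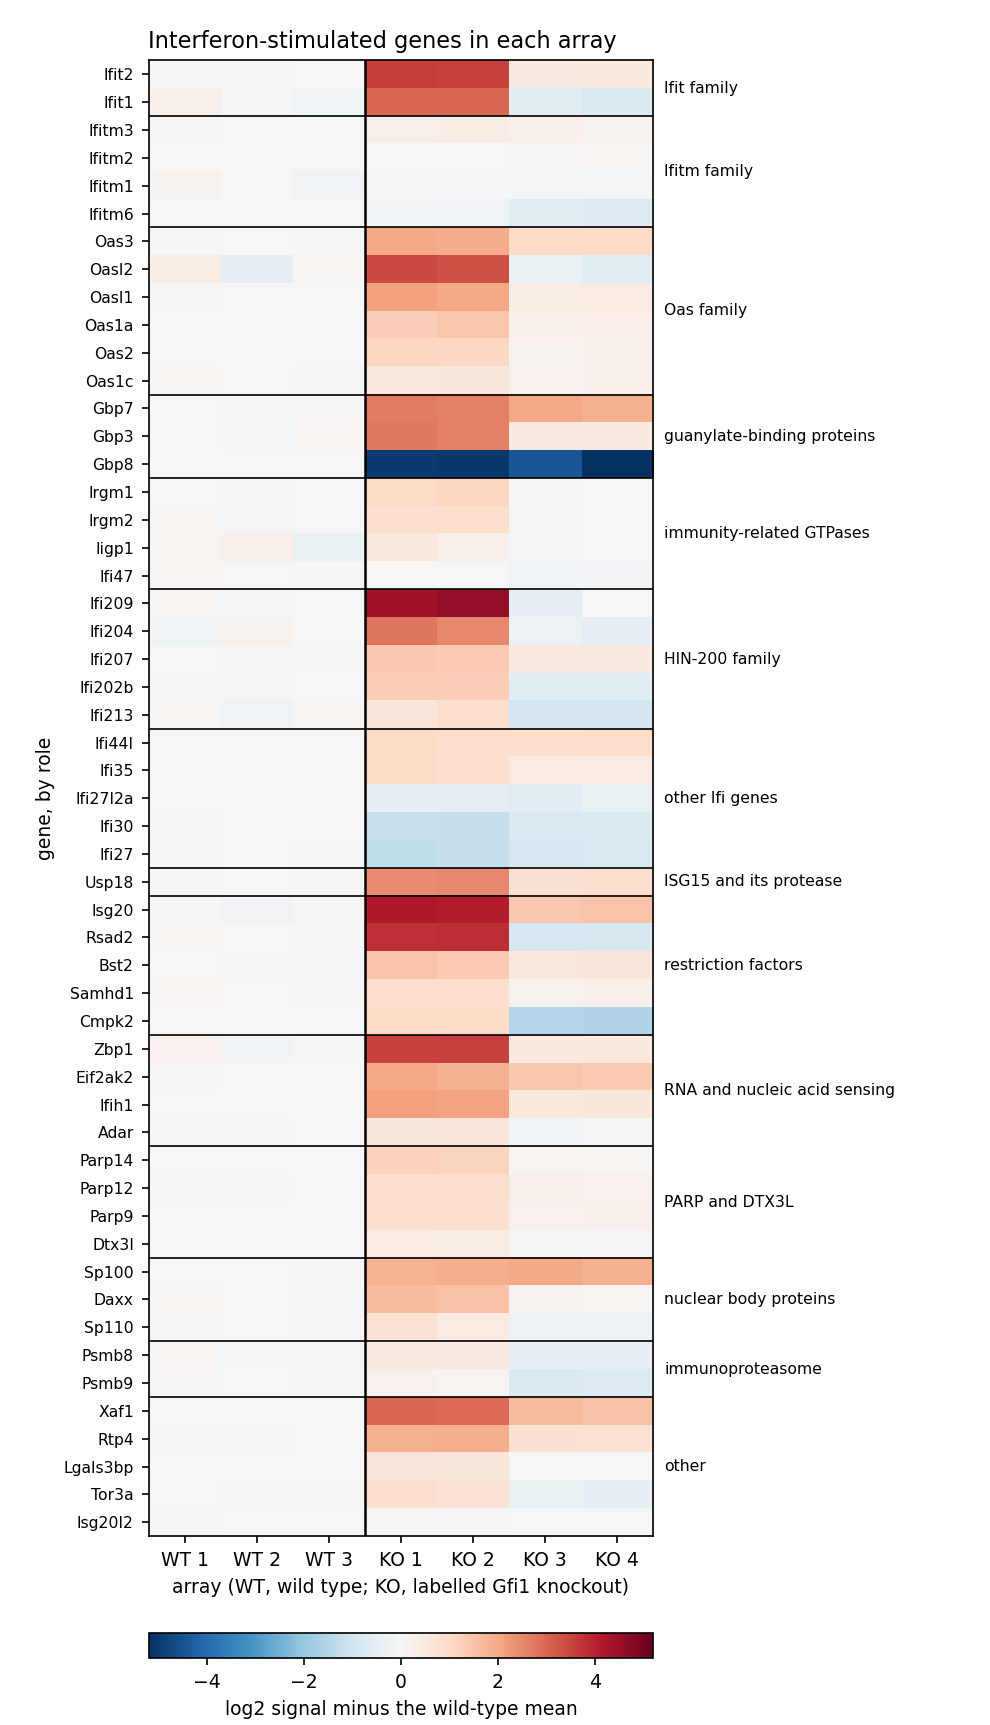
Log2 signal minus the wild-type mean (colour, blue for lower and red for higher) of 53 interferon-stimulated genes (rows, grouped by role) in 3 wild-type and 4 knockout arrays (columns). Knockout replicates 1 and 2 are red in most rows, with member medians of 1.03 and 0.97, while replicates 3 and 4 have medians of 0.07 and 0.09 and hold both red and blue rows.

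Members varied widely among the knockout arrays. The median SD over these 4 arrays was 0.52 for the members and 0.15 for all genes, whereas over the wild-type arrays it was 0.05 and 0.07. In knockout replicate 1, 27 members exceeded the mean of wild type by 2-fold or more (all genes, 6.4%), and in replicate 2 there were 26 (6.26%). In knockout replicates 3 and 4 there were 6 each, against 2.92% and 2.85% of all genes. At least 2-fold below the wild-type mean were 3, 3, 3 and 2 members in replicates 1 to 4, against 6.46%, 6.67%, 3.24% and 3.35%.

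**Figure D2:**
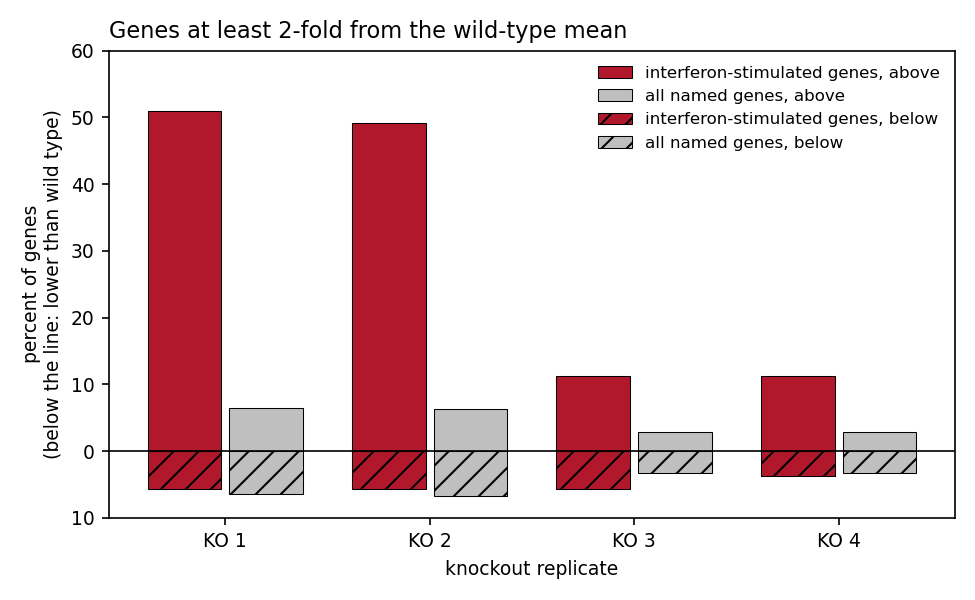
Percent of interferon-stimulated genes (red) and of all named genes (grey) 2-fold or more above (bars up) or below (hatched bars down) the mean of wild type in each knockout array. The red bars above the line reach 50.9% and 49.1% in replicates 1 and 2 and 11.3% in replicates 3 and 4.

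All 4 knockout arrays lay above all 3 wild-type arrays for 26 members (26.5% of all genes) and below them for 5 (27.9%). The arrays overlapped for the other 22. Knockout replicates 1 and 2 were both above every wild-type array for 44 members (39.5% of all genes) and both below for 5 (39.7%). Replicates 3 and 4 were both above for 27 (35.7%) and both below for 16 (38%). For 45 members replicates 1 and 2 each exceeded replicates 3 and 4 (42.7% of all genes), and for 3 they were both lower (37.1%). In 10 members replicates 1 and 2 lay above, and replicates 3 and 4 below, all wild-type arrays, a pattern held by 4.37% of all genes; the opposite pattern was found in 0 members and 4.28% of all genes. The 10 were Rsad2, Cmpk2, Ifit1, Ifi204, Ifi202b, Ifi213, Psmb8, Psmb9, Sp110 and Tor3a. For Rsad2, Psmb8 and Tor3a, which had more than 1 probe set, not every probe set held this pattern. The dimmest probe set of Rsad2 read 3.58 and 3.87 in replicates 3 and 4, against 3.34 to 3.64 in wild type. The second of Tor3a read 7.22 and 7.31 there, against 6.79 to 6.97. The second of Psmb8 read 4.15 and 3.73, against 3.96 to 4.05.

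Each pair was also set against the same 3 wild-type arrays, so these comparisons share their controls, and each rests on 2 closely alike arrays. Without knockout replicates 3 and 4, 43 members rose (34.1% of all genes) and 5 fell (34.1%), with a median of 1.00. Without knockout replicates 1 and 2, 24 rose (27.7% of all genes) and 15 fell (29.3%), with a median of 0.08.

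**Figure D3:**
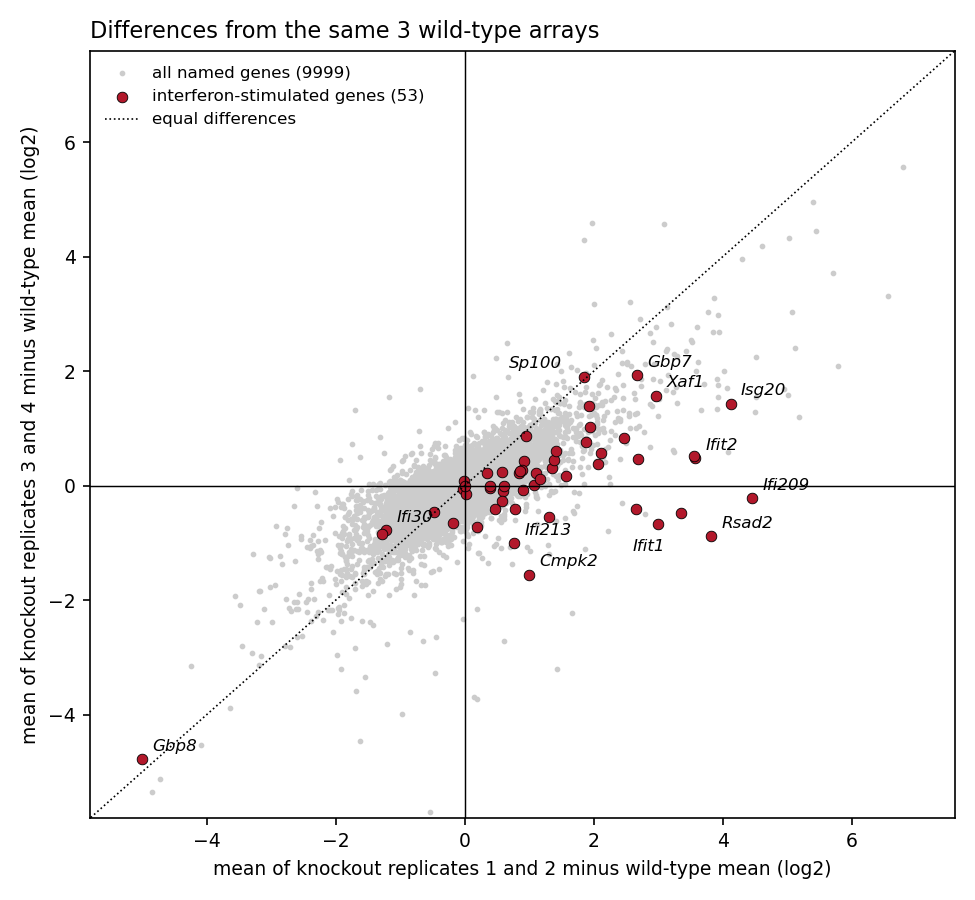
Mean of knockout replicates 3 and 4 minus the wild-type mean (vertical axis, log2) against the same for knockout replicates 1 and 2 (horizontal axis, log2), with 53 interferon-stimulated genes in red, all 9999 named genes in grey and a dotted line of equal differences. Most red points lie right of zero and under the line; Sp100 (1.86 and 1.91) lies on it, and Rsad2 (3.82 and -0.88) and Cmpk2 (1.00 and -1.55) lie below zero on the vertical axis.

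Promoter sequence was looked at because so many members stood high in the same arrays. RefSeq promoter windows of assembly GRCm38.p6, running from 250 bases before to 50 bases after a gene's start, were on hand for 41 members. The core of the response element was searched as GAAA, any 2 bases, GAAA on either strand, and 16 of these 41 members (39.0%) held it, against 3.99% of all 27025 genes with a window and 3.75% of the 8192 measured ones. The gamma-activated site core, TTC, any 3 bases, GAA, which reads the same on both strands, was in 14 (34.1%), against 9.55% and 8.11%. Matches of the cores were counted separately even where they overlapped. Stretches of 40 bases, 5′ to 3′ on the gene's strand with 1 core in capitals, are shown for genes that rose in the main comparison (Gbp7, Oas3, Ifi207) and for genes that split by pair (Rsad2, Ifit1, Ifi213).
Gbp7, chr3:142530268-142530307, plus strand, core 53 bases before the start: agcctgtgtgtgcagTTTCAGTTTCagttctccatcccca
Oas3, chr5:120777710-120777749, minus strand, core 75 bases before the start: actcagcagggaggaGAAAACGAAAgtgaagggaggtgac
Ifi207, chr1:173741826-173741865, minus strand, core 41 bases before the start: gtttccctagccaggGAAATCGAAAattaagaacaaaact
Rsad2, chr12:26456548-26456587, minus strand, core 120 bases before the start: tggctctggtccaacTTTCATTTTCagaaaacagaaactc
Ifit1, chr19:34640789-34640828, plus strand, core 85 bases before the start: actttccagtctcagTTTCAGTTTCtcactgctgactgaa
Ifi213, chr1:173599321-173599360, minus strand, core 73 bases before the start: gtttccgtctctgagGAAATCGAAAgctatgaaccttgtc

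Ifi207 and Ifi213 share the letters of the core, and Ifi207 stood above wild type in all 4 knockout arrays and Ifi213 only in replicates 1 and 2. The 16 members with a core in the window had medians of 1.44, 1.39, 0.27 and 0.29 above wild type in knockout replicates 1 to 4, and 8 of them rose and 0 fell. The 25 members whose window lacked it had medians of 0.87, 0.88, -0.0043 and -0.015, with 6 rises and 1 fall. Of all named genes, 21.5% rose and 21.6% fell. A core in a window is a match of letters, and binding was not measured.

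Neither of the Ifit genes, which encode RNA-binding proteins that hold back translation of foreign RNA, passed the test. Ifit2 read 6.34, 6.46 and 6.44 in wild type and 10.00, 9.99, 6.89 and 6.91 in knockout. The groups did not overlap, but the spread among knockout arrays left a difference of 2.03 (SE 0.88, adjusted p = 0.101). Ifit1, whose product binds the 5′ end of RNA without the host's cap methylation, read 5.17, 4.80 and 4.63 in wild type and 7.87, 7.85, 4.28 and 4.11 in knockout. Replicates 1 and 2 were high and replicates 3 and 4 low, and the difference was 1.16 (SE 1.05, adjusted p = 0.402).

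The Ifitm genes, whose products sit in membranes and hinder viral fusion, gave 1 rise and 0 falls among 4 members. Among all genes 21.5% rose and 21.6% fell. Ifitm3 read 12.14, 12.19 and 12.21 in wild type and 12.50, 12.56, 12.44 and 12.38 in knockout, a rise of 0.29 (SE 0.07, adjusted p = 0.0111) with no overlap. Ifitm2 read 11.23, 11.22 and 11.25 against 11.23, 11.24, 11.31 and 11.32, a difference of 0.04 (SE 0.06). Ifitm6 read 10.38, 10.43 and 10.45 against 10.29, 10.18, 9.81 and 9.74, all lower, without passing (-0.41, SE 0.14, adjusted p = 0.0514). The Ifitm1 arrays overlapped, at 4.16, 3.98 and 3.81 in wild type and 4.06, 3.87, 3.94 and 3.91 in knockout.

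Of 6 genes of the Oas family, enzymes and relatives that respond to duplex RNA and signal to RNase L, 2 rose and 0 fell. The shares of all genes were 21.5% and 21.6%. Oas3 read 6.48, 6.53 and 6.57 in wild type and 8.50, 8.44, 7.57 and 7.55 in knockout, higher in every knockout array and most in replicates 1 and 2, with a rise of 1.49 (SE 0.26, adjusted p = 0.00409). The smaller rise was in Oas1c, at 0.41 (SE 0.12, adjusted p = 0.0262), from 4.96, 4.85 and 4.77 to 5.43, 5.45, 5.10 and 5.11. Both lie in the Oas cluster of chromosome 5.

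The other 4 Oas genes did not pass, and 3 of them had no overlap between groups. Knockout was above wild type in these 3, a pattern held by 26.5% of all genes. Oasl1, an inhibitor of Irf7 translation, read 7.03, 6.95 and 6.94 in wild type and 9.10, 8.98, 7.34 and 7.38 in knockout (1.23, SE 0.48, adjusted p = 0.0760). Oas1a read 10.00, 10.00 and 10.02 in wild type and 11.30, 11.43, 10.28 and 10.35 in knockout (0.83, SE 0.30, adjusted p = 0.0619). Oas2, next to Oas3 on the chromosome, was 7.66 to 7.71 in wild type and 7.86 to 8.82 in knockout (0.67, SE 0.26, adjusted p = 0.0766). In Oasl2 the arrays overlapped: wild type read 3.96, 3.07 and 3.68 and knockout 6.99, 6.88, 3.21 and 2.98 (1.44, SE 1.11).

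The 3 guanylate-binding protein genes, which encode large GTPases that coat pathogen vacuoles, went separate ways. Gbp7 read 4.08, 4.07 and 4.19 in wild type and 6.83, 6.73, 6.14 and 5.95 in knockout, and rose by 2.30 (4.93-fold, SE 0.22, adjusted p = 0.000311). Each knockout array stood at least 1.84 above the wild-type mean. Gbp8 read 6.80, 6.83 and 6.82 in wild type and 1.82, 1.81, 2.39 and 1.70 in knockout, the largest fall of any member (-4.89, SE 0.16, adjusted p = 5.68e-06).

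The knockout level of Gbp8 was among the lowest 5% of all genes, below a limit of 3.49, so the size of its fall is uncertain. Gbp3, the neighbour of Gbp7, read 3.07, 2.96 and 3.18 in wild type and 5.80, 5.71, 3.54 and 3.53 in knockout. It was higher in each knockout array, mostly in replicates 1 and 2, and did not pass (1.58, SE 0.64, adjusted p = 0.0823). Its wild-type level lay under the corresponding limit of 3.51, as did those of Ifi204 and Ifi209.

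None of the 4 immunity-related GTPase genes passed, whereas 43.1% of all genes did. Irgm1, a regulator of the family that protects host membranes, read 7.15, 7.23 and 7.13 in wild type and 8.22, 8.28, 7.23 and 7.13 in knockout (0.55, SE 0.31, adjusted p = 0.191). Irgm2, another regulator, read 6.29, 6.14 and 6.20 against 7.09, 7.14, 6.09 and 6.19 (0.42, SE 0.29, adjusted p = 0.269). In both, knockout replicates 1 and 2 were high and replicates 3 and 4 lay at or near the wild-type level.

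The effector GTPase gene Iigp1 gave a low signal, at 3.79, 3.95 and 3.34 in wild type and 4.23, 3.96, 3.59 and 3.71 in knockout (0.18, SE 0.20). Ifi47, a GTPase of the same family, read 7.47, 7.36 and 7.28 in wild type and 7.40, 7.40, 7.22 and 7.22 in knockout (-0.06, SE 0.08). The groups overlapped in these 4 genes.

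Genes of the HIN domain family encode nucleic acid binding proteins and lie in 1 cluster on chromosome 1. All 5 measured members stood higher in knockout replicates 1 and 2 than in replicates 3 and 4, against 42.7% of all genes. Of these 5 members 1 rose and 0 fell, against 21.5% and 21.6% of all genes. In 3 of the 5, replicates 1 and 2 lay above and replicates 3 and 4 below all wild-type arrays (4.37% of all genes). Ifi209 read 2.64, 2.46 and 2.54 in wild type and 6.90, 7.11, 2.08 and 2.58 in knockout (2.12, SE 1.34, adjusted p = 0.233). Ifi204, whose product senses DNA, read 3.01, 3.39 and 3.23 in wild type and 6.01, 5.72, 2.90 and 2.70 in knockout (1.12, SE 0.88, adjusted p = 0.333).

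Both were dim in wild type and clearly higher only in knockout replicates 1 and 2. Ifi202b read 8.39, 8.52 and 8.50 in wild type and 9.81, 9.77, 7.91 and 7.94 in knockout (0.38, SE 0.53, adjusted p = 0.591). Ifi213 read 4.56, 4.26 and 4.57 against 5.09, 5.36, 3.45 and 3.46 (-0.12, SE 0.51, adjusted p = 0.865). The exception was Ifi207, at 5.98, 5.92 and 6.03 in wild type and 7.37, 7.34, 6.43 and 6.43 in knockout, which rose by 0.92 (SE 0.27, adjusted p = 0.0292). Genes of this cluster are closely related in sequence, so cross-hybridisation between them cannot be told apart from their own signal.

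The other 5 genes with Ifi symbols all passed, 2 upward and 3 downward, and none of their groups overlapped. Among all genes 21.5% passed upward and 21.6% downward. All knockout arrays lay above wild type in 26.5% of all genes and below it in 27.9%. Ifi44l read 7.30, 7.29 and 7.35 in wild type and 8.29, 8.24, 8.14 and 8.23 in knockout, an even rise of 0.91 (SE 0.06, adjusted p = 7.27e-05). Ifi35, the partner of Nmi, read 10.13, 10.15 and 10.20 against 11.14, 11.04, 10.58 and 10.60, a rise of 0.68 (SE 0.15, adjusted p = 0.0111).

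The 3 falls held in all 4 knockout arrays. Ifi30, a lysosomal thiol reductase that prepares antigens, read 11.86, 11.80 and 11.79 in wild type and 10.63, 10.57, 11.02 and 11.07 in knockout (-0.998, SE 0.14, adjusted p = 0.0014). Ifi27 read 10.51, 10.43 and 10.36 against 9.12, 9.19, 9.55 and 9.65 (-1.06, SE 0.14, adjusted p = 0.00125). Ifi27l2a, its relative on chromosome 12, was 10.77 to 10.80 in wild type and 10.26 to 10.41 in knockout (-0.46, SE 0.06, adjusted p = 0.00138). In Ifi30 and Ifi27 replicates 1 and 2 were the lower pair.

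**Figure D4:**
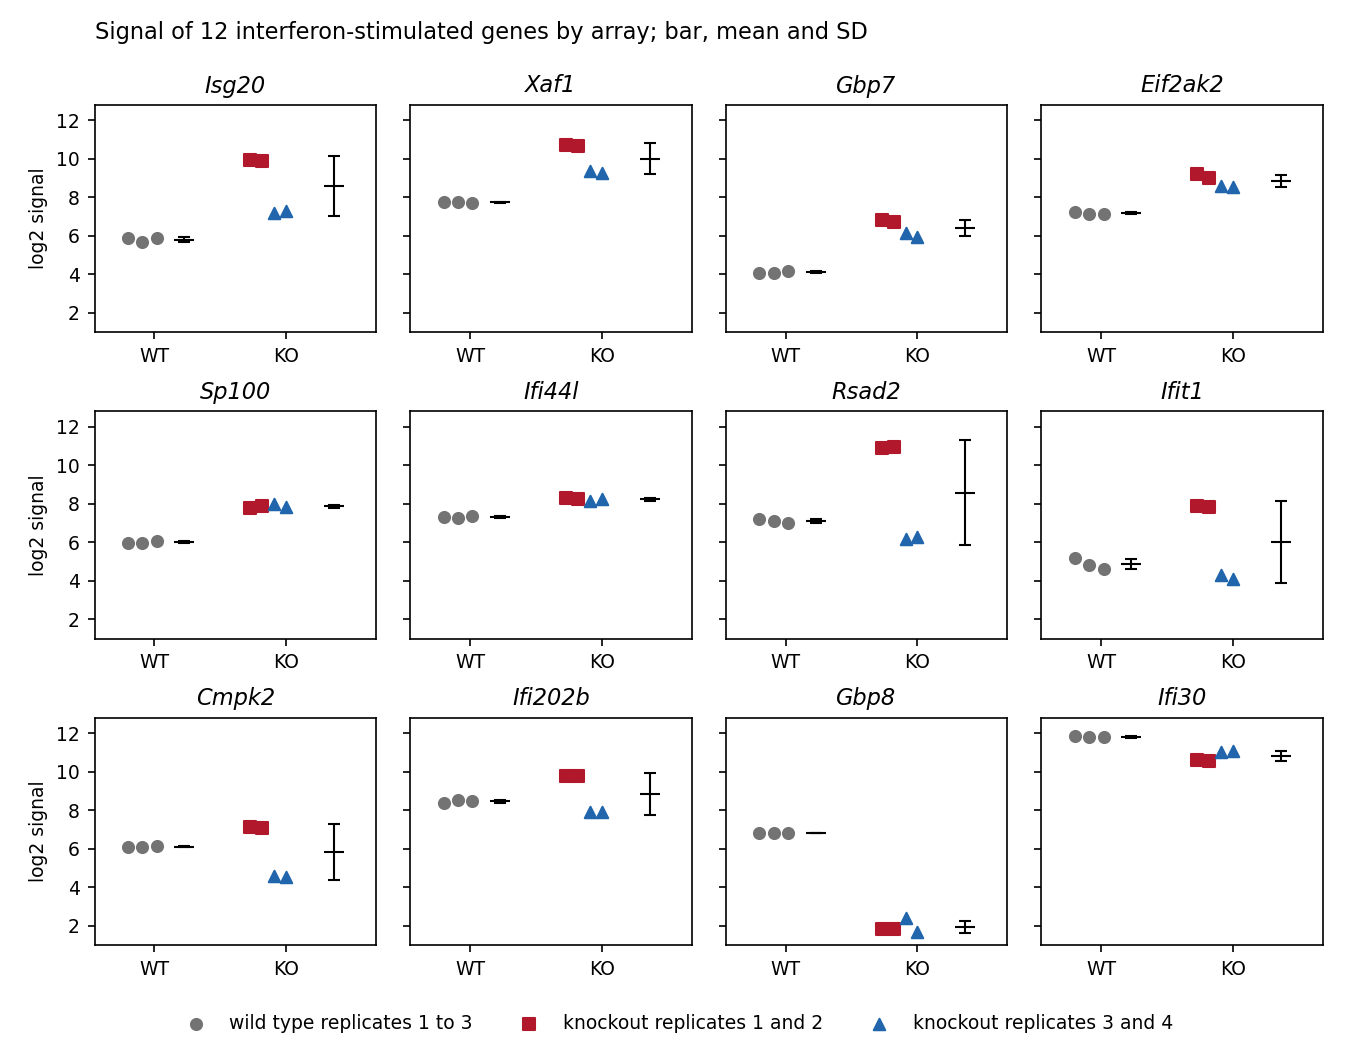
Log2 signal (vertical axis) of 12 interferon-stimulated genes in wild-type arrays (grey circles), knockout replicates 1 and 2 (red squares) and knockout replicates 3 and 4 (blue triangles), with the mean and SD of each group as bars. In Sp100 and Ifi44l the 4 knockout arrays sit together above wild type, in Rsad2, Ifit1, Cmpk2 and Ifi202b they fall on both sides of it, and in Gbp8 and Ifi30 they sit below.

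Among restriction factors, proteins that block steps of viral growth, Isg20 and Bst2 rose. Isg20, an RNA exonuclease, read 5.88, 5.66 and 5.87 in wild type and 9.97, 9.88, 7.18 and 7.28 in knockout, the largest rise of any member that passed (2.78, 6.86-fold, SE 0.77, adjusted p = 0.0240). Bst2, the surface protein tetherin that holds virions on the cell, read 9.44, 9.45 and 9.31 against 10.88, 10.75, 9.96 and 10.04 (1.01, SE 0.24, adjusted p = 0.0139). No knockout array of either gene reached down to wild type. Samhd1, which breaks down deoxynucleotides, read 9.35, 9.23 and 9.21 in wild type and 10.10, 10.12, 9.46 and 9.51 in knockout (0.54, SE 0.19, adjusted p = 0.0535). Its next probe set by brightness stood 1.54 lower in knockout, so the direction for Samhd1 is not settled.

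Rsad2 and Cmpk2, neighbours on chromosome 12, both lay above wild type in knockout replicates 1 and 2 and below it in replicates 3 and 4. Rsad2 encodes viperin, which makes a chain-terminating nucleotide, and read 7.24, 7.09 and 7.03 in wild type and 10.93, 10.95, 6.19 and 6.27 in knockout (1.47, SE 1.34, adjusted p = 0.405). Cmpk2, a mitochondrial nucleotide kinase, read 6.09, 6.08 and 6.14 in wild type and 7.13, 7.08, 4.58 and 4.52 in knockout (-0.28, SE 0.73, adjusted p = 0.782). Against wild type, replicates 1 and 2 alone differed by 3.82 in Rsad2 and 1.00 in Cmpk2, and replicates 3 and 4 alone by -0.88 and -1.55. In both genes each of these differences passed in its own fit. Such fits rest on 2 closely alike arrays and pass many genes. Upward 34.1% of all genes passed without knockout replicates 3 and 4, and downward 29.3% without knockout replicates 1 and 2.

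Of 4 sensors and modifiers of foreign nucleic acid, 2 rose and 0 fell, against 21.5% and 21.6% of all genes. Eif2ak2, the kinase PKR that stops translation on duplex RNA, read 7.24, 7.15 and 7.14 in wild type and 9.20, 9.02, 8.61 and 8.53 in knockout (1.66, 3.16-fold, SE 0.17, adjusted p = 0.000395). Ifih1, the RNA sensor MDA5, read 7.83, 7.82 and 7.80 against 9.94, 9.93, 8.38 and 8.40 (1.35, SE 0.44, adjusted p = 0.0438). Both were above wild type in every knockout array, Eif2ak2 the more evenly. The second probe set of Eif2ak2 differed by 0.56 and did not pass.

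Zbp1, a sensor of left-handed nucleic acid that can trigger cell death, read 5.69, 5.32 and 5.43 in wild type and 9.05, 9.03, 5.97 and 6.04 in knockout. The groups did not overlap, and the difference of 2.04 did not pass (SE 0.87, adjusted p = 0.0954). Adar, which edits adenosines in duplex RNA, read 8.03, 7.90 and 7.95 in wild type and 8.55, 8.57, 7.81 and 7.91 in knockout (0.25, SE 0.21, adjusted p = 0.359). Dimmer probe sets of Adar differed by 1.53 and 0.98, with all knockout arrays higher in each. The brighter of these passed when second probe sets were tested with limma (adjusted p = 0.00783).

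Usp18 removes the ubiquitin-like protein ISG15 from its targets and damps signalling at IFNAR2. It read 8.08, 8.04 and 7.94 in wild type and 10.46, 10.51, 8.82 and 8.87 in knockout, higher in each knockout array, and rose by 1.65 (SE 0.47, adjusted p = 0.0267). Isg15 itself was not analysed here.

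Of the 4 ADP-ribosyltransferase and partner genes 2 rose and 0 fell, against 21.5% and 21.6% of all genes. Parp12 read 8.29, 8.18 and 8.25 in wild type and 9.11, 9.16, 8.56 and 8.46 in knockout (0.58, SE 0.19, adjusted p = 0.0404). Parp9 was 7.96 to 8.01 in wild type, against knockout values of 8.85, 8.86, 8.23 and 8.25 (0.56, SE 0.18, adjusted p = 0.0424). Both rises were larger in replicates 1 and 2.

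Parp9 works as a pair with the ubiquitin ligase encoded by its neighbour Dtx3l, and Parp14 lies beside them on chromosome 16. Dtx3l read 7.78, 7.80 and 7.81 in wild type and 8.21, 8.17, 7.87 and 7.73 in knockout (0.20, SE 0.13, adjusted p = 0.234). Parp14 read 6.98, 6.94 and 6.95 against 8.16, 8.10, 7.09 and 7.08 (0.65, SE 0.30, adjusted p = 0.121). Neither passed, and only the Parp14 arrays did not overlap.

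Sp100, a component of nuclear bodies, gave the steadiest large rise: 5.97, 5.95 and 6.05 in wild type and 7.80, 7.90, 7.97 and 7.83 in knockout (1.88, 3.69-fold, SE 0.07, adjusted p = 7.01e-06). Its other probe set, however, differed by 0.09 and did not pass. Daxx, a histone chaperone of the same bodies, read 7.91, 7.83 and 7.74 in wild type and 9.44, 9.37, 8.03 and 7.95 in knockout (0.87, SE 0.41, adjusted p = 0.123). Sp110 read 4.76, 4.86 and 4.89 against 5.58, 5.27, 4.55 and 4.58 (0.16, SE 0.26, adjusted p = 0.649). Thus the knockout arrays agreed in Sp100, stood apart in Daxx and straddled wild type in Sp110.

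The immunoproteasome subunit genes Psmb8 and Psmb9, near each other on chromosome 17, also straddled it. Psmb8 read 10.00, 9.82 and 9.82 in wild type and 10.35, 10.35, 9.47 and 9.47 in knockout (0.03, SE 0.26, adjusted p = 0.931). Psmb9 read 8.95, 8.90 and 8.84 against 9.12, 9.05, 8.16 and 8.21 (-0.26, SE 0.26, adjusted p = 0.453). A group mean near wild type here averages arrays that lay on either side of it.

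Of the 5 remaining members 2 rose, against 21.5% of all genes. Xaf1, which favours apoptosis by binding an inhibitor of caspases, read 7.74, 7.75 and 7.71 in wild type and 10.72, 10.68, 9.38 and 9.24 in knockout (2.27, 4.83-fold, SE 0.40, adjusted p = 0.00397). Rtp4, a chaperone of membrane receptors, read 9.19, 9.10 and 9.13 against 10.99, 11.04, 9.91 and 9.90 (1.32, SE 0.32, adjusted p = 0.0144). Both were higher in every knockout array.

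Lgals3bp, a secreted glycoprotein, read 8.86, 8.90 and 8.87 in wild type and 9.49, 9.47, 8.87 and 8.86 in knockout (0.30, SE 0.18, adjusted p = 0.222). Tor3a, an ATPase of the endoplasmic reticulum, read 7.62, 7.71 and 7.59 against 8.46, 8.39, 7.26 and 7.21 (0.19, SE 0.34, adjusted p = 0.681), and its 3 probe sets differed in direction. Replicates 3 and 4 lay with wild type in Lgals3bp and below it in Tor3a. Isg20l2, an exonuclease of ribosome processing that entered the list by its symbol, lay between 8.12 and 8.24 in all 7 arrays (0.0044, SE 0.06).

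Genes upstream of these effectors moved in both directions. Their counts stand beside 21.5% of all genes that rose and 21.6% that fell, or 4.48% and 4.56% with random blocks. The single interferon gene analysed, Ifnb1 for interferon beta, read 2.96, 2.90 and 2.94 in wild type and 4.38, 4.24, 2.83 and 2.84 in knockout (0.63, SE 0.42, adjusted p = 0.260). Its wild-type level was among the lowest 5% of all genes, and knockout replicates 3 and 4 stood lower still. Of 8 receptor and kinase genes 0 rose and 4 fell: Il10rb by 0.78 (SE 0.08), Ifngr1 by 0.67 (SE 0.11), Ifnar2 by 0.66 (SE 0.06) and Ifnar1 by 0.44 (SE 0.11). With random blocks the falls of Il10rb and Ifnar2 passed, and Ifngr1 (adjusted p = 0.0910) and Ifnar1 (adjusted p = 0.278) lost their calls. Il10rb is a shared chain of the interferon lambda and interleukin receptors, and Ifngr1 binds interferon gamma.

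Among 8 genes of STAT and interferon regulatory factors 2 rose and 2 fell. Irf7, which amplifies the type I response, read 7.13, 7.01 and 7.01 in wild type and 9.72, 9.74, 8.31 and 8.32 in knockout (1.97, SE 0.41, adjusted p = 0.00768). Irf9 read 6.99, 7.16 and 6.97 against 8.29, 8.10, 7.82 and 7.67 (0.93, SE 0.15, adjusted p = 0.00288). Stat2, at 3.80, 3.48 and 3.41 in wild type and 5.06, 5.16, 3.63 and 3.75 in knockout, did not pass (0.84, SE 0.42, adjusted p = 0.142). Irf1 fell by 0.72 (SE 0.06) and Irf2 by 0.67 (SE 0.07), with all knockout arrays below wild type in each. With random blocks Irf9 lost its call (adjusted p = 0.0703), while Irf7, Irf1 and Irf2 passed.

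Of 13 nucleic acid sensor and adaptor genes 6 rose and 3 fell. The largest differences among those that passed were in Dhx58, a relative of the RNA sensors (1.33, SE 0.31), Tlr3, a receptor for duplex RNA (-0.98, SE 0.31), the DNA sensor gene Aim2 (0.97, SE 0.07) and the adaptor gene Ticam1 (0.86, SE 0.23). With random blocks 1 sensor gene rose, Aim2, and 1 fell, Tlr7; the calls of Dhx58 (adjusted p = 0.0543), Ticam1 (adjusted p = 0.0955) and Tlr3 (adjusted p = 0.215) were lost. Of 6 inhibitor genes 2 rose: Socs3, a feedback inhibitor of cytokine receptors, from 6.36, 6.38 and 6.40 to 8.87, 8.77, 8.76 and 8.70 (2.40, SE 0.06), and the phosphatase gene Ptpn2 (0.31, SE 0.07). The Socs3 values of both knockout pairs lay close together. Socs3 also passed with random blocks, and Ptpn2 did not (adjusted p = 0.219).

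Of 32 further interferon-induced genes outside the symbol rule 10 rose, against 21.5% of all genes, and 2 fell, against 21.6%. The largest changes that passed were in the chemokine gene Cxcl10 (2.89, SE 0.92) and the Schlafen genes Slfn4 (2.74, SE 0.23), Slfn3 (2.17, SE 0.15) and Slfn2 (1.59, SE 0.28). Slfn3 was among the lowest 5% of all genes in wild type (mean 2.23), so the size of its rise is uncertain. With random blocks 4 of the 32 rose (4.48% of all genes) and 1 fell (4.56%), with Slfn4, Slfn3 and Slfn2 among the rises, and Cxcl10 lost its call (adjusted p = 0.104). The median of these 32 genes was 1.08, 0.91, -0.01 and 0.05 above wild type in knockout replicates 1 to 4, beside 1.03, 0.97, 0.07 and 0.09 for the 53 members. In 8 of these 32 genes replicates 1 and 2 lay above and replicates 3 and 4 below all wild-type arrays, against 4.37% of all genes.

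Of the members 15 had more than 1 probe set, 38 probe sets in all. In 13 of these genes every probe set differed in the same direction, and in Samhd1 and Tor3a they did not. The 3 probe sets of Rsad2 differed by 1.47, 2.02 and 2.47, and each was far higher in knockout replicates 1 and 2 than in replicates 3 and 4. Replicates 3 and 4 alone differed from wild type by -0.88, -0.49 and 0.19 in these probe sets. Sizes varied more than directions: the probe sets of Xaf1 differed by 2.27 and 0.23, of which the second did not pass, and those of Ifi209 by 2.12 and 0.0062.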

How the data were processed

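RNA was hybridised to 7 Affymetrix arrays. The authors deposited normalized intensity per probe set, made with RMA per the submitters' processing notes; further steps were not stated in the labels. The values were linear (1.53 to 13508), with array medians of 93.8 to 101.0, and log2 was taken here. Quantile normalization within RMA can hide a global shift. Of 19431 probe sets, 17335 had 1 symbol and 2096 had several or none and were left out; 9999 genes remained. Arrays carry no read depth, and their number limits the precision. Dim genes were not removed. Differences were tested with limma 3.58.1 in R 4.3.3 (group as the only factor, moderated two-sided test, 5 residual and 2.20 prior degrees of freedom, Benjamini-Hochberg adjustment over 9999 genes). The test was tried on simulated data first.

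The members, gene lists, random blocks and pairs of knockout arrays were chosen with earlier results of these data known. All members are named; in each role the 4 with the largest difference are given by array, and other genes shown by array were picked after their values were seen. From each other pathway list up to 4 genes past the threshold are named, with Ifnb1, Stat2, Irf7 and Irf9. Promoter windows came from RefSeq (GRCm38.p6), matched by gene number. Alternatives were quantile normalization, median centring, leaving out genes under the 40th percentile, a trended robust prior, the second or mean probe set, limma treat (fold 1.2), a replicate block, random blocks, and leaving out each array or either knockout pair.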

Additional observations from a re-analysis of the deposited data

How the results depend on the processing

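The 17 rises, 4 falls and 4305 calls over all genes changed with the test used and with the arrays left out, wild-type arrays among them. Rises numbered 7 when tested against a fold of 1.2 (8.53% of all genes), 6 with random blocks (4.48%) and 26 with a replicate block (19.5%). There were 43 rises without knockout replicates 3 and 4 (34.1%), and 8 to 24 without any 1 array (13.8% to 21.8%). Falls numbered 15 without knockout replicates 1 and 2 (29.3% of all genes), and 4 to 5 without any 1 array (15% to 22.9%). Calls over all genes were 1746 against a fold of 1.2, 904 with random blocks, 6814 without knockout replicates 3 and 4, and 2879 to 4465 without any 1 array. The members' median was 0.47 to 0.74 without any 1 array. Of the 21 called members, 12 kept their call whichever array was left out, and 9 passed with random blocks.

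Same-numbered arrays of the groups deviated together with correlations of 0.12, -0.09 and 0.11. Wild type replicate 1 correlated alike with knockout replicates 1 and 2 (0.124 and 0.123), so this check cannot tell whether the numbers pair the samples. Knockout replicate 4 drops out of the block fit. The direction turned for these members. With a replicate block, Cmpk2 was 0.16 and Ifi213 0.17. Without knockout replicates 1 and 2, Adar was -0.099, Ifi202b -0.55, Ifi204 -0.41, Ifi209 -0.22, Ifit1 -0.67, Iigp1 -0.047, Irgm2 -0.071, Lgals3bp -0.0097, Oasl2 -0.47, Psmb8 -0.41, Rsad2 -0.88, Sp110 -0.27 and Tor3a -0.40. Without knockout replicates 3 and 4, Cmpk2 was 1.00, Ifi213 0.76, Ifi47 0.030, Ifitm2 -0.0027 and Psmb9 0.19. Quantile normalization put Ifitm1 at 0.056. Samhd1 was -0.092 as the mean of its probe sets and -1.54 by its second. Without any 1 array the ranges crossed zero for Cmpk2 (-0.71 to 0.16), Ifi213 (-0.46 to 0.17), Ifitm1 (-0.12 to 0.054), Iigp1 (-0.00014 to 0.31), Isg20l2 (-0.017 to 0.033), Psmb8 (-0.12 to 0.18), Sp110 (-0.037 to 0.31) and Tor3a (-0.021 to 0.40). The cause was not tested.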
